A study of Mus musculus with 12 samples.

Results

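The type II classical cadherins are a family of adhesion molecules, and the expression of 10 of them, *Cdh6*, *Cdh7*, *Cdh8*, *Cdh9*, *Cdh10*, *Cdh11*, *Cdh12*, *Cdh18*, *Cdh20* and *Cdh22*, was examined in developing cranial motor neurons of the mouse. The members were chosen by name, by matching the gene identifiers of the 49671 genes in the files to symbols. All 10 were found, and all 10 were among the 18022 genes with enough counts to test. Bulk RNA sequencing was performed on GFP-positive cells sorted from wildtype embryos carrying the Isl1 MN:GFP reporter, in which GFP marks motor neurons, bred from C57BL/6J dams and reporter sires on a mixed 129S1/C57BL/6J background. Cells were dissected separately from the oculomotor nucleus (cMN3), the trochlear nucleus (cMN4) and the facial nucleus (cMN7) of embryos aged e10.5 or e11.5, with 2 biological replicates (A and B) for each of the 6 groups. Each sample pooled embryos of several litters, and their sex was not determined. The e10.5 libraries were made by whole-transcriptome amplification and the e11.5 libraries by poly(A) selection with removal of globin and ribosomal RNA. Age and library preparation therefore cannot be told apart. cMN6 was not analysed here.

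Classical cadherins hold cells together through calcium-dependent contacts between their extracellular domains, while their cytoplasmic tails bind beta-catenin and p120-catenin, which couple them to actin and keep them at the membrane. Type II cadherins are expressed in combinations in the embryonic hindbrain and spinal cord and are known for sorting motor neurons into nuclei and pools. They also bind one another across the family, with preferred partners that fall into specificity groups: *Cdh6*, *Cdh9* and *Cdh10*; *Cdh8* and *Cdh11*; and *Cdh7*, *Cdh12*, *Cdh18*, *Cdh20* and *Cdh22*.

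Estimated counts totalled 13991802 to 21464350 in the e10.5 libraries, and the e11.5 libraries held 21938601 to 30536210. All 7 motor neuron markers reported (*Isl1*, *Phox2a*, *Chat*, *Slc18a3*, *Slc5a7*, *Prph* and *Tbx20*) had counts in each of the 12 libraries. Their summed level was 639 to 932 CPM (counts scaled to library size, with TMM normalisation) in cMN3 and cMN4 libraries and 1580 to 2390 CPM in cMN7 libraries. Most of this gap lay in *Tbx20* (597 to 1590 CPM in cMN7 libraries and 0.317 to 24.6 CPM in the others). The other 6 markers summed to 801 to 980 CPM in cMN7 libraries and 622 to 909 CPM in the others. More markers than *Tbx20* differed in the tests described below, at an adjusted p below 0.05. In cMN3, 4 of 7 were lower and 1 higher than in cMN7 (list median log2 fold change -1.66). In cMN4, 5 of 7 were lower and 0 higher than in cMN7 (median -1.09). Over all genes, 11.3% and 9.62% passed in these comparisons, in either direction. Markers of other cells were also present. Summed levels were 598 to 1430 CPM for neural progenitor markers (10 genes), 103 to 372 CPM for sensory ganglion markers (8 genes), 4.34 to 102 CPM for mesenchyme markers (10 genes), 9.46 to 89.5 CPM for neural crest and glia markers (8 genes), 13.0 to 129 CPM for erythroid markers (8 genes) and 3.24 to 22.7 CPM for endothelial markers (8 genes). *Vim* alone was 312 to 649 CPM, and the other 9 progenitor markers summed to 279 to 980 CPM. *Eya2* was 22.6 to 310 CPM, and the other 7 sensory ganglion markers, which include *Isl2*, summed to 38.8 to 148 CPM. Erythroid markers include globin genes, whose RNA was removed in the e11.5 preparation, so their levels at the 2 ages are not on 1 scale. How many other cells these sums stand for was not tested. Progenitor markers differed between the cMN4 replicates at e11.5, at 667 CPM in A and 1430 CPM in B, where *Mki67*, a marker of cycling cells, was 24.2 and 176 CPM.

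Members lie in 4 genomic neighborhoods. On chromosome 15 of GRCm38, the order is *Cdh6* (chr15:13028701-13173675, minus strand), *Cdh9* (chr15:16728756-16857094, plus strand), *Cdh10* (chr15:18818947-19014236, plus strand), *Cdh12* (chr15:20449265-21589533, plus strand) and *Cdh18* (chr15:22549022-23474418, plus strand), with gaps of 0.959 to 3.56 Mb between neighbors. On chromosome 8, *Cdh8* (chr8:99024471-99416471, minus strand) and *Cdh11* (chr8:102632095-102785642, minus strand) lie 3.22 Mb apart. On chromosome 1, *Cdh20* (chr1:104768529-104995481, plus strand) and *Cdh7* (chr1:109982431-110140157, plus strand) lie 4.99 Mb apart. *Cdh22* (chr2:165111507-165234853, minus strand) has no other member on its chromosome. All are protein coding. The opposite-strand transcript *Gm15679*, which overlaps an exon of *Cdh8*, had 0 counts over 12 libraries. Overlapping transcripts at *Cdh9* and *Cdh12* (*Gm49127* and *Gm49685*) were not analysed here, so reads shared with them cannot be told apart.

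The 250 bases directly upstream of the RefSeq start (GRCm38.p6) are shown for *Cdh22*, *Cdh12*, *Cdh8* and *Cdh20*, the members with a RefSeq entry that differed between nuclei. RefSeq starts can differ from the gene positions given above. The *Cdh12* window lies inside the *Cdh12* gene as given there, and the *Cdh22* window overlaps the start of its gene. Capitals mark matches to 4 motifs, searched on both strands. TAATTA is the core of many homeodomain sites, CAGCTG is one form of E-box, GGGCGG is known as the Sp factor site, and TATAAA is an element found near many transcription starts. No matches overlapped in the windows printed.
Cdh22, chr2:165234738-165234987, minus strand: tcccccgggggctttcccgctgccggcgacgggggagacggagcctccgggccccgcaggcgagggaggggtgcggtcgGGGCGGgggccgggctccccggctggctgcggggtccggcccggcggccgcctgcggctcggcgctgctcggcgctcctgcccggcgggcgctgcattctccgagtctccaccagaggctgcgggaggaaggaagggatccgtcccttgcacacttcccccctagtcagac
Cdh12, chr15:21111202-21111451, plus strand: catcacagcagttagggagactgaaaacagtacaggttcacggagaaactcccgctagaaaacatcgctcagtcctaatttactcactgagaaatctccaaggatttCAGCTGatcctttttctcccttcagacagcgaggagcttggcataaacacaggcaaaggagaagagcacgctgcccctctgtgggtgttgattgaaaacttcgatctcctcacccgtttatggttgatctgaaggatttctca
Cdh8, chr8:99416472-99416721, minus strand: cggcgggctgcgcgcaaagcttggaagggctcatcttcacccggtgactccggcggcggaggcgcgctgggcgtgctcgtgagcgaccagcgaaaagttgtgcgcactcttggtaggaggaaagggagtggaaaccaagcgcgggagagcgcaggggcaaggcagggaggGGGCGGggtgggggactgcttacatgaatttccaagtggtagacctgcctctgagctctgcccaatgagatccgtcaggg
Cdh20, chr1:104768270-104768519, plus strand: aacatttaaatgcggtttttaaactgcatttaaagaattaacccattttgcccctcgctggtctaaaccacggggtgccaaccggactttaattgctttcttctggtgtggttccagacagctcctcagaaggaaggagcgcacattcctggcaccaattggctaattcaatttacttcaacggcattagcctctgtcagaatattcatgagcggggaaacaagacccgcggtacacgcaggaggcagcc

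The *Cdh22* and *Cdh8* windows each held 1 match to GGGCGG, the *Cdh12* window 1 match to CAGCTG, and the *Cdh20* window none of the 4 motifs. Among the 32851 windows of the same length in the RefSeq table, 32.7% held GGGCGG, 13.0% CAGCTG, 12.4% TATAAA and 4.84% TAATTA. The windows differed in base composition. GC content was 77.6% for *Cdh22* with 30 CpG sites, 64.4% for *Cdh8* with 20, 47.6% for *Cdh20* with 10 and 46.8% for *Cdh12* with 7, against a median of 52.4% and 6 CpG sites over all windows. RefSeq windows were found for 9 of the 10 members, and *Cdh11* had no entry.

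To describe the cadherin combination of each nucleus, member levels were compared as TPM, a unit scaled to transcript length as well as to library size, so that genes can be compared with one another. *Cdh6* contributed the largest share of the summed TPM of the 10 members in 4 of the 6 groups. At e10.5 its share was 47.9% ± 2.19 in cMN3, 67.5% ± 0.00993 in cMN4 and 48.2% ± 1.57 in cMN7 (SD, n = 2 for every share). What followed *Cdh6* differed by nucleus. In cMN3 it was *Cdh11* (27.2% ± 1.95) and *Cdh12* (18.8% ± 0.253), in cMN4 *Cdh12* (15.5% ± 3.02), and in cMN7 *Cdh22* (27.6% ± 0.488).

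At e11.5, *Cdh11* was the largest contributor in cMN3 at 46.0% ± 0.586, with *Cdh6* second at 30.6% ± 2.40 and *Cdh8* next at 9.99% ± 2.46. The transcript length used for *Cdh11* in cMN3 was 5358 and 4738 bases at e10.5 and 4149 and 3989 bases at e11.5. This bears on its share, as does the different library preparation of the ages. In CPM, which is not scaled to length, *Cdh11* in cMN3 averaged 127 at e10.5 and 168 at e11.5. In cMN4, *Cdh6* was first at 43.8% ± 0.492, followed by *Cdh11* at 18.5% ± 0.382 and *Cdh8* at 10.8% ± 2.57. In cMN7, *Cdh22* led at 44.7% ± 16.7, with *Cdh6* at 22.0% ± 12.6 and *Cdh11* at 18.4% ± 1.82. The cMN7 replicates at e11.5 stood apart from each other: the *Cdh22* share was 56.5% in replicate A and 32.9% in replicate B, and the *Cdh6* share 13.2% and 30.9%. Within a group, *Cdh6* and *Cdh11* overlapped in cMN7 at e11.5, and *Cdh12*, *Cdh22* and *Cdh20* formed an overlapping run in cMN4 at e11.5. All other neighbors among members above 5 TPM in both replicates did not overlap between their replicates.

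**Figure D1:**
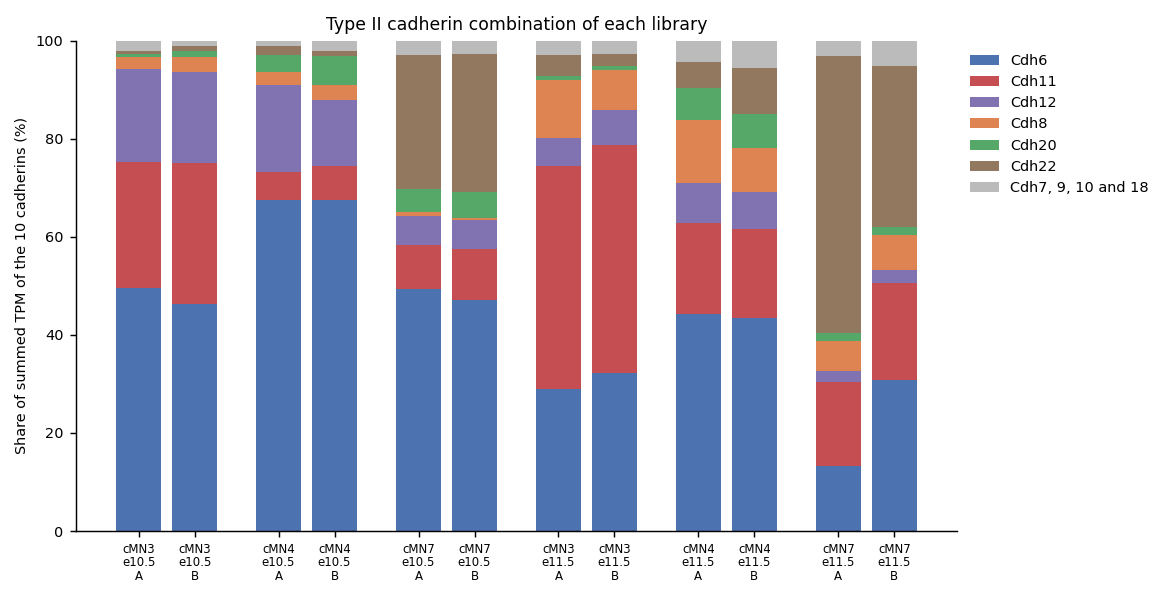
Share (%) of the summed TPM of the 10 type II cadherins taken by each member, with 1 stacked bar for each of the 12 libraries, by nucleus, age and replicate. *Cdh22* takes 27.3% to 56.5% of the cMN7 bars, and *Cdh11* takes 45.6% and 46.4% of the cMN3 bars at e11.5.

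Grouped by binding specificity, *Cdh8* and *Cdh11* together made up 56.0% ± 1.86 of the total in cMN3 at e11.5, against 29.3% ± 2.93 in cMN4 and 25.0% ± 2.48 in cMN7. The group of *Cdh7*, *Cdh12*, *Cdh18*, *Cdh20* and *Cdh22* made up 12.6% ± 0.475, 24.2% ± 3.32 and 52.1% ± 15.3 in the same order. At e10.5, the *Cdh8* and *Cdh11* share was 29.9% ± 2.28 in cMN3, 9.14% ± 1.24 in cMN4, and 9.97% and 10.9% in the cMN7 replicates. *Cdh24*, another type II cadherin generally placed in the *Cdh8* and *Cdh11* group, is not among the 10 members. With its TPM added to the group and to the total, the shares at e11.5 were 59.0% ± 2.09 in cMN3, 34.5% ± 2.62 in cMN4 and 35.2% ± 0.853 in cMN7, and at e10.5 they were 32.3% ± 3.12, 12.1% ± 1.42 and 18.1% ± 0.159. The summed TPM of the family itself was lowest in cMN7 e11.5 replicate A (77.7) and highest in cMN3 e11.5 replicate B (212).

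At a level of at least 1 TPM in both replicates, 4 members were present in cMN3 at e10.5 (*Cdh6*, *Cdh8*, *Cdh11* and *Cdh12*), 6 in cMN4 (the same 4 with *Cdh20* and *Cdh22*) and 7 in cMN7 (*Cdh6*, *Cdh10*, *Cdh11*, *Cdh12*, *Cdh18*, *Cdh20* and *Cdh22*). At e11.5 these numbers were 8, 8 and 7. *Cdh6*, *Cdh11* and *Cdh12* reached this level in all 6 groups. At 5 TPM the 3 nuclei at e10.5 had 3, 4 and 5 members. *Cdh6*, *Cdh11* and *Cdh12* were common to them, with *Cdh20* added in cMN4 and *Cdh20* and *Cdh22* added in cMN7.

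**Figure D2:**
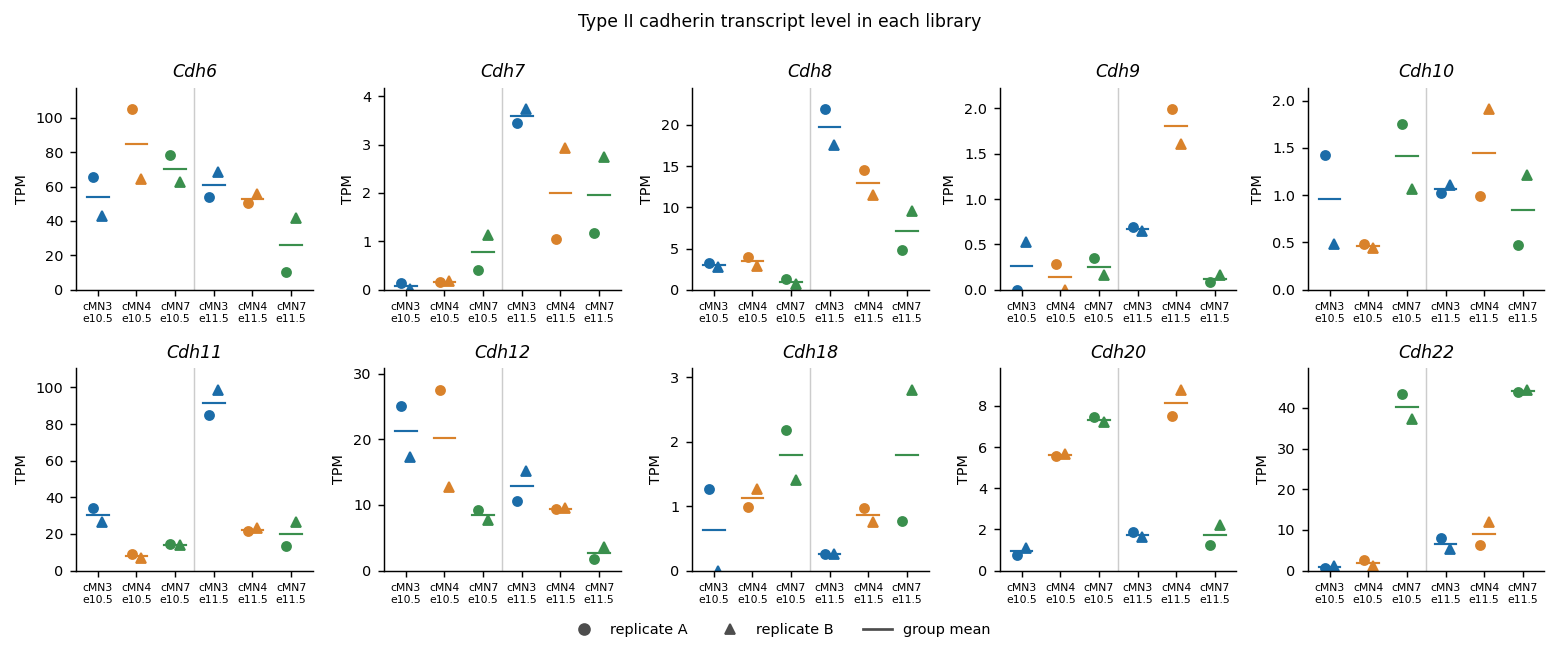
TPM of each type II cadherin in each of the 12 libraries, on a linear axis that starts at 0 and is scaled for each gene. Circles are replicate A, triangles replicate B and bars the group mean of 2 libraries. *Cdh22* reaches 37.2 to 44.4 TPM in cMN7 libraries and *Cdh11* 84.9 and 98.6 TPM in cMN3 libraries at e11.5.

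The profiles over the 10 members were compared between libraries of the same age by Pearson's r of log2(TPM + 1), as a description, since members are not replicates. Replicates of the same nucleus gave r of 0.971 to 0.989 for the e10.5 libraries and 0.958 to 0.992 for the e11.5 libraries. Libraries of cMN3 and cMN4 gave 0.883 to 0.91 and 0.887 to 0.909. Libraries of cMN7 were less like those of cMN3 (0.619 to 0.684 at e10.5, 0.649 to 0.81 at e11.5) and those of cMN4 (0.722 to 0.779 and 0.639 to 0.824). Between ages, the mean profile of each nucleus was most like that of the same nucleus, with r of 0.874 for cMN3, 0.873 for cMN4 and 0.824 for cMN7. The nearest other pairing was cMN3 at e10.5 with cMN4 at e11.5, at 0.843.

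**Figure D3:**
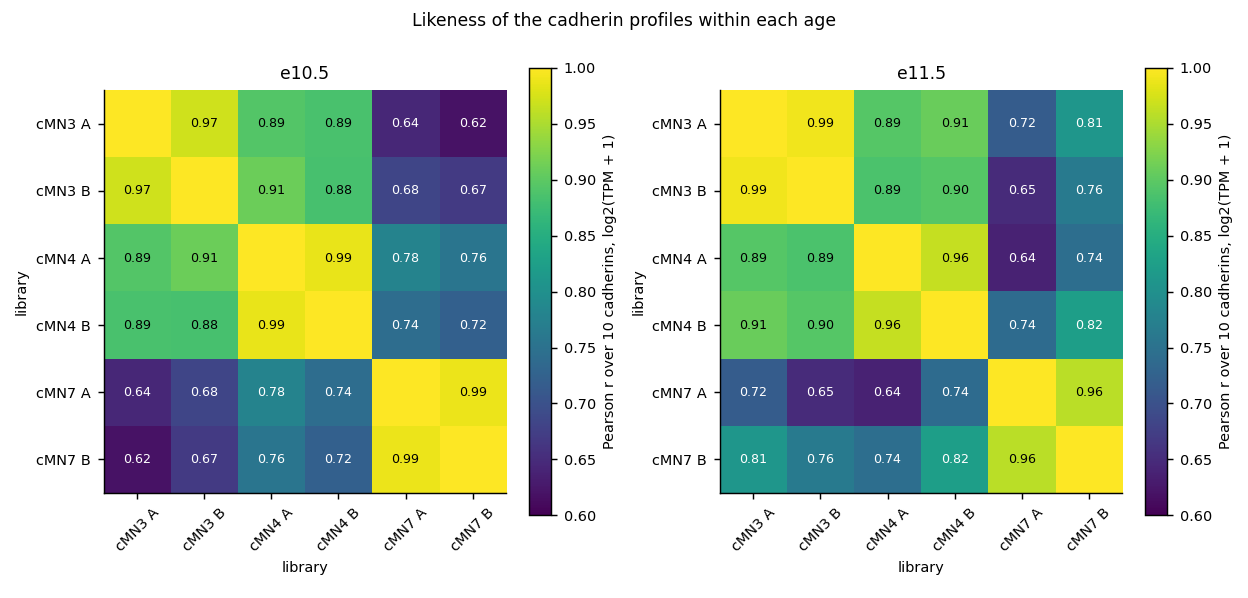
Pearson's r of log2(TPM + 1) over the 10 type II cadherins for each pair of libraries of one age, with a color scale from 0.6 to 1. Replicate pairs have r of at least 0.958, and pairs of a cMN7 library with another nucleus at most 0.824.

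To test differences between nuclei, estimated counts of all 18022 genes were fitted with edgeR's quasi-likelihood test and p-values adjusted over all of them by the Benjamini-Hochberg method. Fold changes are given as log2 of CPM with their standard error (SE), averaged over both ages unless an age is named, with 2 libraries in each group. For edgeR, this SE was back-calculated as the absolute log2 fold change divided by the square root of the test's F statistic. Between cMN3 and cMN7, 5 of 10 members passed the adjusted threshold of 0.05, against 11.3% of all genes. *Cdh8*, *Cdh11* and *Cdh12* were higher in cMN3, and *Cdh20* and *Cdh22* were higher in cMN7. Between cMN4 and cMN7, 4 of 10 members passed, against 9.62% of all genes, with *Cdh8*, *Cdh12* and *Cdh20* higher in cMN4 and *Cdh22* higher in cMN7. Between cMN3 and cMN4, 2 of 10 members passed, against 7.06% of all genes: *Cdh11* was higher in cMN3 and *Cdh20* in cMN4. The median log2 fold change over the 10 members was 0.53 for cMN3 against cMN7, 0.32 for cMN4 against cMN7 and 0.15 for cMN3 against cMN4, against 0, -0.01 and 0 over all genes. In these bulk samples, fewer cells that express a gene and less RNA in each cell cannot be told apart.

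*Cdh22*, a cadherin of the *Cdh7* specificity group, gave the largest fold change of the family and was highest in cMN7. Its level at e10.5 was 0.66 and 1.07 TPM in cMN3, 2.67 and 1.06 TPM in cMN4, and 43.3 and 37.2 TPM in cMN7. At e11.5 it was 7.93 and 5.28 TPM in cMN3, 6.2 and 11.9 TPM in cMN4, and 43.9 and 44.4 TPM in cMN7. All 4 cMN7 libraries were above all 8 others. On the log2 CPM scale, *Cdh22* was lower in cMN3 than in cMN7 (-3.94, SE 0.26; edgeR adjusted p = 1.34e-06) and lower in cMN4 than in cMN7 (-3.37, SE 0.25; adjusted p = 3.88e-06). The cMN3 and cMN4 libraries overlapped at each age, and their difference did not pass (log2 fold change -0.58, SE 0.26, adjusted p = 0.23). *Tbx20* was also higher in cMN7 libraries, as given above. The other 6 motor neuron markers summed to 801 and 805 CPM in cMN7 at e10.5. In cMN3 they summed to 648 and 716 CPM and in cMN4 to 690 and 677 CPM. At e11.5 the sums were 980 and 808 CPM in cMN7 and 748 and 715 CPM in cMN3, without overlap. The cMN4 sums at e11.5, 909 and 622 CPM, overlapped those of cMN7. The part of these markers in the *Cdh22* difference was not tested.

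The *Cdh22* difference between cMN3 and cMN7 was smaller at e11.5 than at e10.5. It was -5.02 (SE 0.40) on the log2 scale at e10.5, when cMN3 libraries held only 26 and 33 counts, and -2.87 (SE 0.33) at e11.5. The change between ages was 2.15 (SE 0.49; edgeR adjusted p = 0.0438), so that 1 of 10 members passed, against 2.7% of all genes. *Cdh20* had a change of like size that missed the threshold (2.18, SE 0.52; adjusted p = 0.0515). The *Cdh22* change passed in 9 of 20 alternative settings, with adjusted p up to 0.178, and was lost without any 1 of 9 libraries (all but the cMN4 e11.5 replicates and cMN7 e11.5 replicate B). In cMN7 itself the level was 68.0 and 64.0 CPM at e10.5 and 78.1 and 62.6 CPM at e11.5, so that the replicates of the ages overlapped, whereas in cMN3 it was 1.37 and 2.87 CPM at e10.5 and 11.8 and 7.49 CPM at e11.5. The corresponding change for cMN4 against cMN7 was 1.85 (SE 0.47) and did not pass (adjusted p = 0.264).

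*Cdh11*, a cadherin also abundant in embryonic mesenchyme, was higher in cMN3. At e10.5 it measured 34.1 and 26.5 TPM in cMN3, 8.82 and 6.71 TPM in cMN4, and 14.5 and 13.9 TPM in cMN7. At e11.5 it measured 84.9 and 98.6 TPM in cMN3, 21.5 and 23.2 TPM in cMN4, and 13.3 and 26.6 TPM in cMN7. The cMN3 libraries were above the others at each age, without overlap. *Cdh11* was higher in cMN3 than in cMN4 by 2.12 on the log2 CPM scale (SE 0.11; edgeR adjusted p = 5.14e-07) and higher than in cMN7 by 2.01 (SE 0.10; adjusted p = 2.25e-07). Both differences passed within e10.5 and within e11.5, and in each of 20 alternative settings. cMN4 and cMN7 gave a difference of -0.12 (SE 0.10; adjusted p = 0.59).

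Mesenchyme markers were also highest in cMN3 at e10.5. Their summed level at e10.5 was 86.6 and 102 CPM in cMN3, 32.1 to 75.5 CPM in cMN4 and 41.5 to 48.2 CPM in cMN7. At e11.5 it was 22.8 and 52.5 CPM in cMN3, 20.0 to 27.5 CPM in cMN4 and 4.34 to 36.7 CPM in cMN7, so that the nuclei overlapped. Of the 10 mesenchyme markers, 8 to 10 had counts in each library. The median log2 fold change over this list was 0.94 (e10.5) and 1.15 (e11.5) for cMN3 against cMN4, and 2.14 and 0.63 for cMN3 against cMN7. *Pdgfra* was the marker that passed within an age, for cMN3 against cMN4 at e11.5 (2.54, SE 0.54; edgeR adjusted p = 0.0347). *Dcn*, *Lum* and *Foxc1* were each at 0 counts in at least 1 library. Summed endothelial markers were higher in cMN3 at both ages, at 8.91 CPM or more, against 3.24 to 7.32 CPM in the other nuclei. Within this sum, *Kdr* was 4.28 to 8.26 CPM in cMN3 libraries and 0.588 to 2.78 CPM in the others. Without *Kdr*, the other 7 markers summed to 5.06 and 14.4 CPM in cMN3 at e10.5, against 1.49 to 4.55 CPM. At e11.5 they summed to 3.65 and 5.76 CPM in cMN3, overlapping 4.67 and 4.05 CPM in cMN7. The summed level of sensory ganglion markers was also higher in cMN3, at 327 and 372 CPM against 194 to 240 CPM at e10.5. At e11.5 it was 257 and 293 CPM against 103 to 238 CPM. *Eya2* made up most of that cMN3 level (212 to 310 CPM). At e10.5 the other 7 markers summed to 62.2 and 53.4 CPM in cMN3 and to 148 and 144 CPM in cMN7. The list median log2 fold change for cMN3 against cMN7 was -2.08 (e10.5) and -1.87 (e11.5). Of the markers that passed, 1 was higher and 3 lower in cMN3 at e10.5, and 2 higher and 4 lower at e11.5. Against cMN4 the median was -0.92 (1 higher, 1 lower) and -1.07 (1 higher, 0 lower). *Cdh11* was 131 and 122 CPM in cMN3 at e10.5 and 164 and 173 CPM at e11.5, where its difference was 1.94 from cMN4 (SE 0.15) and 2.08 from cMN7 (SE 0.15). The part of these other markers in the *Cdh11* difference was not tested.

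*Cdh12*, a neuronal cadherin, was lower in cMN7 than in the other nuclei. At e10.5 its level was 25.1 and 17.3 TPM in cMN3, 27.5 and 12.8 TPM in cMN4, and 9.21 and 7.63 TPM in cMN7. At e11.5 it was 10.6 and 15.1 TPM in cMN3, 9.34 and 9.49 TPM in cMN4, and 1.75 and 3.57 TPM in cMN7. The cMN7 libraries were the lowest at each age, and the cMN3 and cMN4 libraries overlapped in TPM at e10.5. Relative to cMN7, *Cdh12* was higher in cMN3 by 2.11 (SE 0.19; edgeR adjusted p = 2.11e-05) and in cMN4 by 1.60 (SE 0.19; adjusted p = 0.000186), and both passed within each age. With limma, the cMN4 difference at e11.5 was lost on log2(TPM + 1) (adjusted p = 0.0633) and log2(TPM + 0.1) (0.0563), and the cMN3 difference at e10.5 on log2(TPM + 0.1) (0.0511), each the highest of 21 alternatives. The cMN4 difference at e10.5 was lost with limma on both scales (0.164 and 0.202), and also without cMN4 e10.5 replicate A (adjusted p = 0.0714) or cMN7 e10.5 replicate B (adjusted p = 0.091), within a range up to 0.202 over 21 alternatives. The difference between cMN3 and cMN4 was 0.51 (SE 0.18; adjusted p = 0.129), and it passed with a replicate block within each age (0.51, adjusted p = 0.0401) and with no filter on low counts (adjusted p = 0.0114), within a range of 0.0114 to 0.667 over 20 alternatives.

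*Cdh8*, which shares the specificity group of *Cdh11*, was likewise lowest in cMN7. At e10.5 it measured 6.39 and 5.48 CPM in cMN3, 6.06 and 4.25 CPM in cMN4, and 2.08 and 0.856 CPM in cMN7. At e11.5 it measured 28.5 and 22.0 CPM in cMN3, 19.2 and 14.4 CPM in cMN4, and 7.66 and 12.3 CPM in cMN7. The cMN7 libraries did not overlap the others at either age. *Cdh8* was higher in cMN3 than in cMN7 by 1.68 (SE 0.28; edgeR adjusted p = 0.00217) and in cMN4 than in cMN7 by 1.28 (SE 0.28; adjusted p = 0.0129). Both differences passed within e10.5, at 2.01 (SE 0.42) and 1.81 (SE 0.43), and neither passed within e11.5, at 1.34 (SE 0.37; adjusted p = 0.0775) and 0.75 (SE 0.37; adjusted p = 0.431). The cMN3 difference at e11.5 was 1.33 with a replicate block at e11.5 (adjusted p = 0.0553) and 1.33 with a replicate block within each age (adjusted p = 0.03). It also passed with DESeq2 (adjusted p = 0.0121), with no filter on low counts (0.00199) and without cMN7 e11.5 replicate B (0.0427), or in 4 of 21 alternatives with adjusted p up to 0.516. Without cMN7 e10.5 replicate B, the differences at e10.5 were 1.5 for cMN3 and 1.31 for cMN4, and neither kept its call. The cMN3 difference at e10.5 was also lost with limma on log2(TPM + 1) (adjusted p = 0.054). It passed in 19 of 21 alternatives. The cMN4 difference at e10.5 was lost with limma on log2(TPM + 1) (adjusted p = 0.0986) and log2(TPM + 0.1) (0.0569). It was also lost in edgeR on 1 age alone (0.0915) and without cMN4 e10.5 replicate A (1.52), and passed in 16 of 21 alternatives. The cMN4 result over both ages was lost without cMN4 e10.5 replicate A (adjusted p = 0.0597) or without cMN7 e10.5 replicate B (adjusted p = 0.0621), within a range up to 0.0621 over 20 alternatives.

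*Cdh20*, also called MN-cadherin, was low in cMN3 at both ages. At e10.5 its level was 0.75 and 1.1 TPM in cMN3, 5.54 and 5.68 TPM in cMN4, and 7.44 and 7.2 TPM in cMN7. At e11.5 it was 1.86 and 1.64 TPM in cMN3, 7.52 and 8.77 TPM in cMN4, and 1.25 and 2.21 TPM in cMN7. cMN4 libraries were above cMN3 libraries throughout, whereas cMN7 libraries stood above cMN4 libraries in TPM at e10.5 and overlapped cMN3 libraries at e11.5. *Cdh20* was lower in cMN3 than in cMN4 (log2 fold change -2.17, SE 0.26; edgeR adjusted p = 0.000504), with -2.15 at e10.5 and -2.18 at e11.5. The latter was lost without cMN3 e11.5 replicate A (adjusted p = 0.0911) or B (adjusted p = 0.14), the highest of 21 alternatives.

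The comparisons of *Cdh20* with cMN7 are given for each age. In cMN3 it was lower than in cMN7 at e10.5 (log2 fold change -2.24, SE 0.38; edgeR adjusted p = 0.00252), and at e11.5 the difference was -0.06 (SE 0.36; adjusted p = 0.997). In cMN4 it differed from cMN7 by -0.08 at e10.5 (SE 0.35; adjusted p = 0.942) and was higher by 2.12 at e11.5 (SE 0.37; adjusted p = 0.00499), the last with adjusted p = 0.0528 without cMN7 e11.5 replicate A, the highest of 21 alternatives. The changes between ages were 2.18 (SE 0.52; adjusted p = 0.0515) for cMN3 and 2.21 (SE 0.50; adjusted p = 0.169) for cMN4, so that neither passed. With a replicate block at e11.5, where same-letter replicates deviated together, the first was 2.20 with adjusted p = 0.029, and it passed in 7 of 20 alternatives, within a range of 0.00277 to 0.196. Over both ages, *Cdh20* was lower in cMN3 than in cMN7 (-1.15, SE 0.26; adjusted p = 0.0141) and higher in cMN4 than in cMN7 by 1.02 (SE 0.25; adjusted p = 0.0241). The former lost its call without cMN3 e11.5 replicate B (adjusted p = 0.0725), cMN7 e10.5 replicate A (0.056) or cMN7 e10.5 replicate B (0.0555), and the latter passed in 13 of 20 alternatives, with adjusted p up to 0.143. The latter was lost without cMN4 e10.5 replicate B, cMN4 e11.5 replicate B, either cMN7 e10.5 replicate or cMN7 e11.5 replicate A (adjusted p = 0.0697 to 0.111). *Tfap2b*, a transcription factor on the neural crest and glia marker list, was also highest in cMN4, at 23.8 to 75.5 CPM against 0.113 to 5.55 CPM in the other nuclei. The other 7 markers of that list summed to 8.59 to 14.1 CPM in cMN4 libraries and 8.39 to 28.2 CPM in the others, and the part of these markers in the cMN4 level was not tested.

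**Figure D4:**
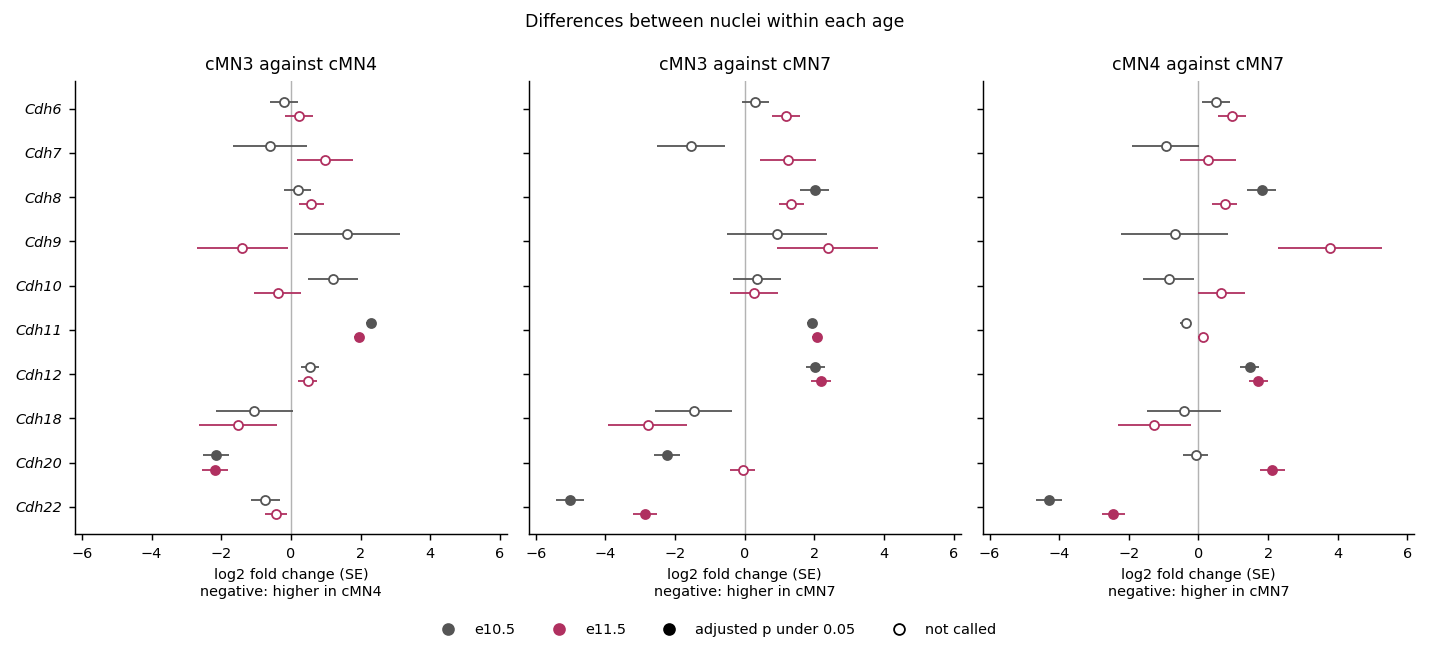
log2 fold change of each type II cadherin between nuclei within each age, with an SE derived from the F statistic of edgeR's quasi-likelihood test. Filled points passed an adjusted p of 0.05 over 18022 genes, and positive values are higher in the first nucleus named. *Cdh22* reaches -5.02 for cMN3 against cMN7 at e10.5, and *Cdh20* moves from -0.08 to 2.12 for cMN4 against cMN7.

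*Cdh6*, a cadherin of the early neural tube and of neural crest, was the most abundant member in most libraries. At e10.5 it measured 65.4 and 43.0 TPM in cMN3, 105 and 64.5 TPM in cMN4, and 78.2 and 62.6 TPM in cMN7. At e11.5 it measured 53.8 and 68.5 TPM in cMN3, 50.7 and 55.4 TPM in cMN4, and 10.2 and 41.7 TPM in cMN7. The cMN7 libraries at e11.5 were the lowest and differed by the largest ratio between replicates. *Cdh6* did not pass in any comparison of nuclei: the difference from cMN7 was 0.75 in cMN3 (SE 0.28; edgeR adjusted p = 0.119) and 0.73 in cMN4 (SE 0.28; adjusted p = 0.142). With the replicate block at e11.5 both were 0.82 and passed, with adjusted p = 0.0265 and 0.031, and the cMN3 against cMN7 difference at e11.5 was 1.34 with adjusted p = 0.0288. Over 20 alternatives the adjusted p for cMN3 against cMN7 ranged from 5e-07 to 0.364 and that for cMN4 against cMN7 from 1.04e-06 to 0.375.

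Without cMN7 e11.5 replicate A, the *Cdh6* difference between cMN3 and cMN7 was 0.43 (adjusted p = 0.0341), and without cMN7 e11.5 replicate B it was 1.34 (adjusted p = 2.96e-05). For cMN4 against cMN7 these values were 0.42 (adjusted p = 0.0488) and 1.33 (adjusted p = 3.35e-05).

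The remaining members, *Cdh7*, *Cdh9*, *Cdh10* and *Cdh18*, were at 0 to 3.73 TPM in all 12 libraries, with 248 to 625 counts each over all libraries. None passed between nuclei in the edgeR test of 18022 genes. *Cdh7* was 3.44 and 3.73 TPM in cMN3 at e11.5 and 1.05 to 2.93 TPM in the other nuclei at that age. *Cdh9* was highest in cMN4 at e11.5, at 1.99 and 1.61 TPM, against 0.08 and 0.16 TPM in cMN7, and the difference of 3.78 (SE 1.49; edgeR adjusted p = 0.271) rested on 71 and 78 counts against 3 and 6. This *Cdh9* difference passed in 2 of 19 alternatives. They were edgeR on 1 age alone (3.79, adjusted p = 0.0108) and with no filter on low counts (3.79, adjusted p = 0.0186). *Cdh9* had 0 counts in cMN3 e10.5 replicate A, which allows a level up to 0.158 CPM (3 counts), and in cMN4 e10.5 replicate B, which allows up to 0.283 CPM. *Cdh18* had 0 counts in cMN3 e10.5 replicate B, which allows up to 0.261 CPM, and 22 counts in replicate A. These limits cover counting error only. *Cdh18* was 0.25 and 0.26 TPM in cMN3 and 0.77 and 2.8 TPM in cMN7 at e11.5, and its difference between cMN3 and cMN7 over both ages was -2.13 (SE 0.79; unadjusted p = 0.0204, adjusted p = 0.118). Without cMN3 e10.5 replicate A, cMN3 at e10.5 rested on replicate B alone, which had 0 counts. The *Cdh18* differences of cMN3 over both ages were then -4.66 against cMN4 and -5.51 against cMN7. With all libraries, the difference from cMN7 passed with DESeq2 (-2.17, adjusted p = 0.0405). It also passed in edgeR with no filter on low counts (-2.12, adjusted p = 0.0261). Over 20 alternatives, adjusted p was up to 0.615 against cMN4 and up to 0.326 against cMN7. *Cdh10* was 0.44 to 1.91 TPM, with no comparison of nuclei at an adjusted p below 0.341. For *Cdh7* and *Cdh18*, effective transcript length differed by 4.55-fold and 2.01-fold between libraries, which bears on their TPM and not on the counts tested. The ratio was 1.63 for *Cdh10*, 1.57 for *Cdh8*, 1.45 for *Cdh11* and 1.27 for *Cdh22*, which likewise bears on their TPM and shares.

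Within each age, the counts of members that passed were read against their own background. At e10.5, 2 of 10 passed for cMN3 against cMN4 (7.95% of all genes), 5 for cMN3 against cMN7 (14.4%) and 3 for cMN4 against cMN7 (6.55%). At e11.5, 2 of 10 passed for cMN3 against cMN4 (1.85%), 3 for cMN3 against cMN7 (4.13%) and 3 for cMN4 against cMN7 (4.14%). *Cdh11* and *Cdh22* passed at both ages in the comparisons named above, as did *Cdh12* against cMN7 and *Cdh20* for cMN3 against cMN4. No member had a cMN3 against cMN4 difference that changed with age (0 of 10 by edgeR, against 0.0999% of all genes; 0 below 0.05 unadjusted; 0 in DESeq2 and in limma). For cMN4 against cMN7, 0 of 10 passed by edgeR, against 0.333% of all genes, while 3 had an unadjusted p below 0.05, DESeq2 called 2 and limma called 0.

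Between the ages, 7 of 10 members passed, near the 49.8% of all genes that did, so that this count was not particular to the family. *Cdh7* (2.72, SE 0.53), *Cdh8* (2.18, SE 0.23), *Cdh22* (1.42, SE 0.20) and *Cdh11* (0.48, SE 0.08) were higher at e11.5. *Cdh12* (-1.61, SE 0.16), *Cdh6* (-1.11, SE 0.23) and *Cdh20* (-0.71, SE 0.21) were lower, all on the log2 CPM scale. On log2(TPM + 1) with limma, the median of all genes moved by 0.456, and the *Cdh6* and *Cdh20* values became -0.71 (adjusted p = 0.0541) and -0.22 (adjusted p = 0.329). The *Cdh20* call was also lost without cMN3 e11.5 replicate B (adjusted p = 0.0546) or cMN4 e10.5 replicate B (adjusted p = 0.0504), within a range up to 0.473 over 20 alternatives.

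Members were compared with one another over the 12 libraries, after the mean of each age was removed from log2(CPM + 0.5). These r values describe libraries that share nucleus, dissection and amplification. *Cdh8* and *Cdh12* varied together (r = 0.91), and both ran opposite to *Cdh22* (r = -0.90 and -0.92), whose upstream sequences are shown above. *Cdh6* and *Cdh12* gave r = 0.78, and *Cdh11* and *Cdh20* r = -0.70. *Cdh8* lies on chromosome 8 and *Cdh12* on chromosome 15.

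By the same measure, the 3 genes most like each member were found among 9409 well-expressed genes. For *Cdh22* they were *Slc18a2* (r = 0.983), the vesicular monoamine transporter, *Sall3* (0.978), a zinc finger transcription factor, and *Pknox1* (0.974), a homeodomain factor. *Slc18a2* averaged 27.6 CPM in cMN3, 32.7 CPM in cMN4 and 103 CPM in cMN7. For *Cdh11* they were *Tmem255a* (0.976), *Ehbp1* (0.976) and *Kcnd3* (0.975), a voltage-gated potassium channel. *Tmem255a* averaged 207 CPM in cMN3 against 6.06 and 6.72 CPM in cMN4 and cMN7. For *Cdh12* they were *Nalcn* (0.984), a sodium leak channel, *Dach2* (0.982), a transcriptional cofactor, and *Hepacam2* (0.975), an immunoglobulin-family adhesion molecule. For *Cdh8* they were *Ptpro* (0.943), a receptor tyrosine phosphatase, *Rimbp2* (0.936), a presynaptic scaffold, and *Ablim1* (0.93), an actin-binding protein. For *Cdh20* they were *Bhlhe22* (0.958), a transcription factor, *Snhg17* (0.954) and *Bend3* (0.946). *Cdh6* was nearest to *Dmxl2* (0.959), *Rev3l* (0.958) and *Chd9* (0.957), whose means differed by less than those of the genes above (213, 204 and 175 CPM for *Dmxl2* in cMN3, cMN4 and cMN7). For the low members, the highest r was 0.934 for *Cdh7* (with *Plekha8*), 0.896 for *Cdh18* (with *Kif13b*), 0.883 for *Cdh10* (with *Mccc2*) and 0.852 for *Cdh9* (with *Zfp202*).

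Other cadherins and their intracellular partners were examined beside the family. Among 17 catenins and partners, 16 were tested, and *Ctnnb1*, which encodes beta-catenin, had the highest mean level (423 to 639 CPM) and did not pass between nuclei. In this list 2 genes were lower in cMN3 than in cMN4, 3 were lower in cMN3 than in cMN7, and 3 were higher and 1 lower in cMN4 than in cMN7, of 16 tested each, against 7.06%, 11.3% and 9.62% of all genes. None of these changes exceeded 2 on the log2 scale, and the list medians were -0.06, -0.06 and -0.04. Among 5 type I cadherins, *Cdh2* (N-cadherin) was the most abundant, at 231 to 458 CPM. It was higher by 0.43 (SE 0.10; edgeR adjusted p = 0.022) in cMN3 than in cMN4 and lower in cMN4 than in cMN7 (-0.40, SE 0.10; adjusted p = 0.0222). *Cdh4* (R-cadherin), named after its values were seen, was 22.5 to 27.0 CPM in cMN7 libraries, 8.52 to 20.3 CPM in cMN3 libraries and 5.81 to 11.4 CPM in cMN4 libraries, and passed in all 3 comparisons of nuclei. Of 3 type II genes outside the family set, *Cdh24* was lower in cMN4 than in cMN7 (-1.13, SE 0.19; adjusted p = 0.00194), *Cdh5* (VE-cadherin) was 9.48 CPM in cMN3 e10.5 replicate B and 0 to 1.24 CPM elsewhere, and *Cdh19* was not tested for low counts.

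Delta protocadherins, non-classical relatives without catenin-binding tails, also differed between nuclei. In all, 9 of 9 passed for cMN3 against cMN4, with 5 higher and 4 lower in cMN3, against 7.06% of all genes. For cMN3 against cMN7, 3 were higher and 3 lower, against 11.3% of all genes, and for cMN4 against cMN7, 2 were higher and 3 lower, against 9.62%. *Pcdh9* was 313 to 378 CPM in cMN3 libraries, 40.4 to 88.2 CPM in cMN4 libraries and 14.4 to 49.5 CPM in cMN7 libraries. It was higher in cMN3 than in cMN4 by 2.66 (SE 0.26; edgeR adjusted p = 9.73e-05) and than in cMN7 by 3.35 (SE 0.27; adjusted p = 6.86e-06). *Pcdh8* was also higher in cMN3, by 2.32 (SE 0.19) and 2.09 (SE 0.19). *Pcdh17* and *Pcdh19* were highest in cMN4, where *Pcdh17* was 159 and 161 CPM at e10.5 against 24.5 to 40.2 CPM in the other nuclei. *Pcdh7* and *Pcdh10* were highest in cMN7, where *Pcdh7* was 173 to 209 CPM against 16.7 to 21.8 CPM in cMN4 (log2 fold change -3.27, SE 0.15, adjusted p = 9.35e-08).

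**Figure D5:**
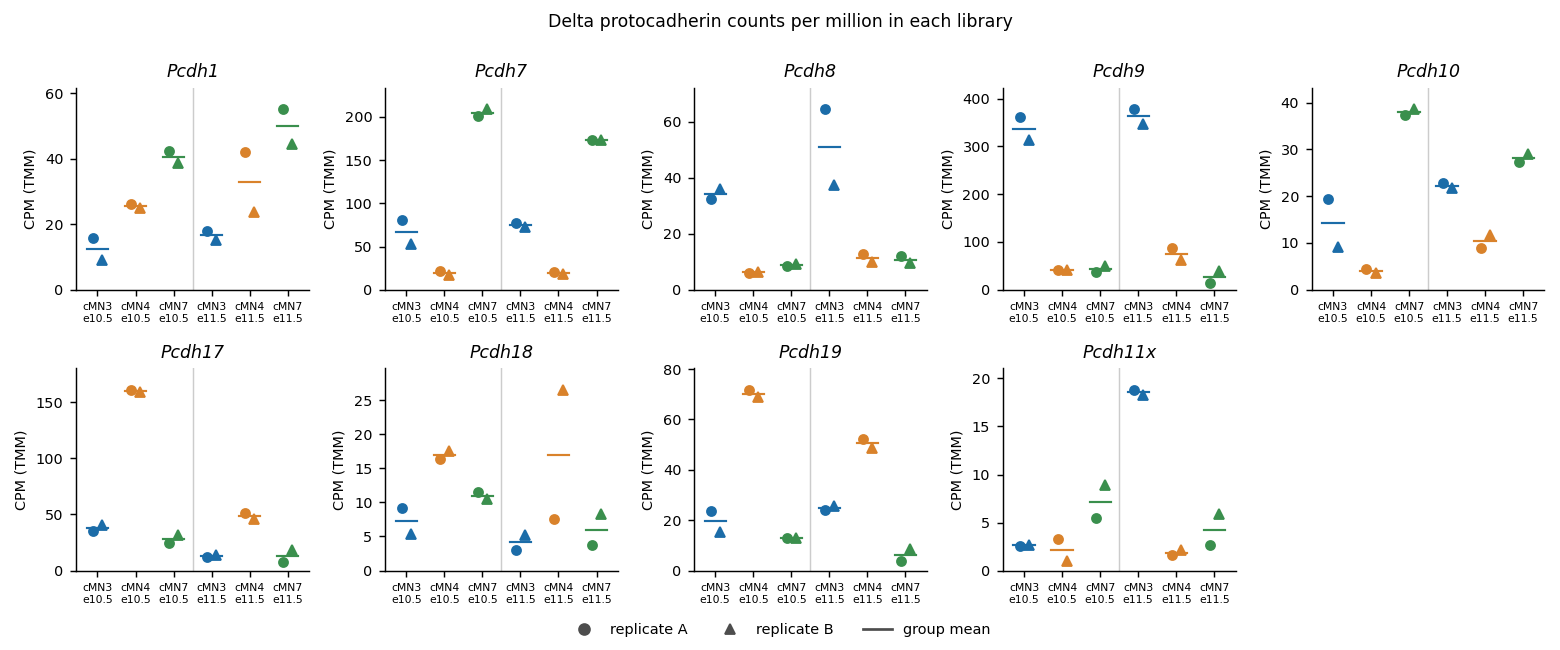
CPM of the 9 delta protocadherins in each of the 12 libraries, on a linear axis that starts at 0 and is scaled for each gene, with symbols as for the plot of cadherin TPM. *Pcdh9* is at 313 to 378 CPM in cMN3 libraries, *Pcdh17* at 159 and 161 CPM in cMN4 libraries at e10.5, and *Pcdh7* at 173 to 209 CPM in cMN7 libraries.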

How the data were processed

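Bulk RNA-seq was performed on sorted cells of 12 samples (2 for each of 6 groups). The deposited files gave, for each gene, expected counts and TPM that the authors estimated with RSEM after STAR alignment to the Ensembl GRCm38 annotation; versions and strandedness were not given in the sources used here. Expected counts were rounded to whole numbers, normalised by TMM and tested with edgeR 4.0.16 (quasi-likelihood test, 6 group means, R 4.3.3) on 18022 of 49671 genes passing filterByExpr (minimum count 10, minimum total 15), and p-values were adjusted by Benjamini-Hochberg (threshold 0.05). The code was tested on simulated data. Replicate letters come from the labels. At e11.5, over 7881 genes, same-letter samples deviated together (r = 0.726, 0.606 and 0.581), and at e10.5 they did not (0.066, -0.011 and 0.111), so a replicate block at e11.5 was added after the data were seen. Replicates pooled several litters. Levels between genes were compared in TPM, which the authors scaled to effective transcript length.

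The members and gene lists were chosen with earlier results of these data known. The text names the 10 members, list genes that passed with a log2 change over 2 or had the highest CPM of their list, and the 3 genes most like each member by r, placeholder symbols left out; exceptions are stated. Alternatives were RLE scaling, DESeq2 1.42.0, limma 3.58.1 on log2(TPM + 1) and log2(TPM + 0.1) for genes with a mean of at least 1 TPM, no count filter, replicate blocks, 1 age alone, and leaving out each library. Symbols matched 49326 identifiers. Gene positions came from a GENCODE annotation of GRCm38 and upstream sequences from RefSeq; Gm49685 and Gm49127, which overlap *Cdh12* and *Cdh9* exons there, were not used here. Of the motor neuron marker list, 1 gene is not reported here, and sums leave it out. Marker sums without 1 gene, and shares with *Cdh24*, were added after the data were seen. Shares of CPM per transcript length equal shares of TPM by construction and test nothing.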

Additional observations from a re-analysis of the deposited data

Results flagged for a closer look

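The *Cdh22* difference between cMN3 and cMN7 differed between e10.5 and e11.5 by 2.15 on the log2 scale, by a test of the difference itself (an interaction term in edgeR, adjusted p = 0.0438, over 20 alternatives 4.53e-07 to 0.178). All cMN3 libraries were below all cMN7 libraries at both ages. The ages were prepared by different library methods, which cannot be told apart from age.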

How the results depend on the processing

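Of 2631 fold changes recomputed under the alternatives, 2534 kept their direction and side of the threshold, 47 lost and 50 gained a call, and none that was called reversed. Another 86, called in neither setting, had the other sign. On TPM, limma moved the median of all genes by -0.238 for cMN3 against cMN7 and by 0.718 for its change with age. The *Cdh11* and *Cdh22* calls between nuclei over both ages held in all 20 alternatives, as did those of *Cdh12*, of *Cdh20* for cMN3 against cMN4 and of *Cdh8* for cMN3 against cMN7.

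The number of members called moved by over 1.5 times as follows, and the cause was not tested. With no filter on low counts it was 4 for cMN3 against cMN4 (2 in the report), 5 for cMN3 against cMN7 at e11.5 (3), 5 for cMN4 against cMN7 at e11.5 (3), and 3 and 2 for the changes with age of cMN3 (1) and cMN4 (0) against cMN7. With DESeq2 it was 5 for cMN3 against cMN7 at e11.5, and 2 and 2 for these changes with age. With limma at pseudocounts of 1 and 0.1 it was 1 and 1 for cMN4 against cMN7 at e10.5 (3) and 0 and 0 for the change of cMN3 against cMN7, and with 0.1 it was 1 for cMN3 against cMN4 at e11.5 (2). RLE scaling gave 2 for the change of cMN3 against cMN7.

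Leaving out each library in turn gave 2 to 5 for cMN4 against cMN7 (4 in the report; 2 without cMN7 e10.5 replicate B), 1 to 3 for it at e10.5 (1 without cMN4 e10.5 replicate A or cMN7 e10.5 replicate B), 1 to 2 for cMN3 against cMN4 at e11.5 (1 without either cMN3 e11.5 replicate), 3 to 5 for cMN3 against cMN7 at e11.5 (5 without cMN7 e11.5 replicate B), 0 to 4 for the change of cMN3 against cMN7 (4 without cMN7 e11.5 replicate B) and 0 to 1 for that of cMN4 against cMN7 (1 without cMN7 e11.5 replicate B). Of the 12 omissions, 9 left no call for the change of cMN3 against cMN7 (all but the cMN4 e11.5 replicates and cMN7 e11.5 replicate B). With 1 library left in a group, it was assumed to vary like the others.

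For the paired fits, the change with age of cMN3 against cMN7 gave 2 members with a replicate block, 2 with a replicate block within each age and 2 with a replicate block at e11.5, and the replicate block within each age gave 5 for cMN3 against cMN7 at e11.5. The block at e11.5 changed no call between nuclei, or of a change with age, beyond the *Cdh6* and *Cdh20* values in the report. Depth limits *Cdh7*, *Cdh9*, *Cdh10* and *Cdh18*, which had 625 counts or fewer over 12 libraries.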
